A study of Rattus norvegicus with 10 samples.

Results

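The synaptic vesicle release machinery was taken as 31 genes listed by name, with earlier results of these data known. Of these, 30 had a row in the gene expression tables, among 22081 genes, and all 30 passed the filter on low counts that left 14135 genes for testing. The expression of Sv2b was not analysed here. The members fell into the SNARE core (4 genes), calcium sensors (6), vesicle membrane and vesicle coat proteins (7), Rab3 GTPases (3), factors of priming, clamping and SNARE recycling (6) and active zone scaffolds (4). RNA was sequenced from the medial prefrontal cortex (mPFC: infralimbic, prelimbic and anterior cingulate cortex) of 10 outbred male Sprague-Dawley rats, with 1 library per rat. Every rat had a history of cocaine self-administration (0.75 mg/kg in each infusion) followed by abstinence, and tissue was taken on experimental day 27. They were split at the median of their lever presses for cocaine-paired cues into high cue rats (HC, n = 5; rats 9, 10, 11, 15 and 16) and low cue rats (LC, n = 5; rats 2, 4, 12, 13 and 14). The study reported that HC rats took more cocaine in total than LC rats, so phenotype and intake cannot be told apart here. No rat without cocaine was among the samples, so every difference below is between cocaine-experienced animals. The name of each deposited table also carries the word Cue (HC 9, 10 and 11; LC 12, 13 and 14) or NoCue (HC 15 and 16; LC 2 and 4). The sample labels do not give this word or explain it, and it is used below only as a word in a name.

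Transmitter release needs a vesicle to be held, docked, primed and fused. The SNARE proteins SNAP-25 and syntaxin-1 on the plasma membrane and VAMP on the vesicle zip into a complex that pulls the membranes together. Synaptotagmins sense calcium, complexins clamp and then assist the complex, Munc13 and RIM prepare vesicles for release, and NSF with the SNAP adaptors takes spent complexes apart. Synapsins and Rab3 proteins hold vesicles in reserve or guide them to the membrane, and Bassoon, Piccolo, RIM and ELKS proteins form the scaffold of the active zone. The genes are expressed broadly by neurons, with isoforms that differ between cell types, and in cortical tissue the sum over all neurons is read. In such bulk samples, fewer cells of a type and less RNA per cell cannot be told apart.

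The libraries held between 11296517 and 26664008 exon reads per rat. LC 2 stood apart from the rest: 28.4% of its exon reads came from the 13 mitochondrially encoded genes, against 7.65 to 11.96% in the other 9 libraries. These genes took 52.0% of the TPM total in LC 2 and 17.4 to 25.7% elsewhere. TPM values are exon reads per exon length, scaled to the same fixed total in every library, so a nuclear gene in LC 2 has a lower TPM than its share of nuclear reads would give. The median tested gene was 0.81 lower in LC 2 than in the median of the other libraries on the log2 TPM scale, and 0.02 lower in CPM after TMM scaling (CPM are exon reads relative to the library total, here with a library factor from edgeR; the factor was 0.772 for LC 2 and 1.003 to 1.055 for the rest). TPM are therefore used below to show levels in each rat and to compare genes, and CPM after TMM to set LC 2 against other libraries. Markers of neurons were detected in every library, with a summed level of 6613 CPM in LC 2 and 5046 to 5577 CPM in the other libraries over 8 genes, of which LC 2 lay above the range of the others for 3 and below it for 2. LC 2 was also above the other libraries in the sum over 6 interneuron markers (952 CPM, against 637 to 801 CPM). It was below them in the sums over 6 markers of oligodendrocytes (1311 CPM, against 1392 to 2424 CPM) and 6 of microglia (163 CPM, against 186 to 225 CPM). In LC 2 the sum over 6 excitatory neuron markers lay within the range of the other libraries (5726 CPM, against 5108 to 6313 CPM). So did the sum over 6 astrocyte markers (2155 CPM, against 1868 to 2164 CPM). The sum over 5 endothelial and mural cell markers was within it too (148 CPM, against 104 to 193 CPM). Single markers went both ways for interneurons (2 above the range, 1 below), microglia (2 above, 3 below) and excitatory neurons (3 above, 2 below). For oligodendrocytes 0 were above and 4 below. The part of these markers in the LC 2 values of the members was not tested.

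Promoter sequences from RefSeq (GRCr8) were at hand for 26 of the 31 members, Sv2b included. Snap25, Syt5, Syt7, Syngr1 and Syngr3 had no entry. The 200 bases before the start site are shown for Pclo, Vamp2 and Syn1, which lay above the other libraries in LC 2 in the results below. They are also shown for Stx1a, which lay below them. These are examples: Rab3a, Erc2 and Syt1 had higher ratios in LC 2 than Syn1 and are not shown. Capitals mark the GC box GGGCGG and the cyclic AMP response element TGACGTCA, on either strand.
Pclo, chr4:21005112-21005311, - strand: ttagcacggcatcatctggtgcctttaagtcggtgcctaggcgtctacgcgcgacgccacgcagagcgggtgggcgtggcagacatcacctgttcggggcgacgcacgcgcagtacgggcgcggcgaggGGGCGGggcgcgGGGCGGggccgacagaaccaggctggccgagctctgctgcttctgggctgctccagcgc
Vamp2, chr10:54292589-54292788, + strand: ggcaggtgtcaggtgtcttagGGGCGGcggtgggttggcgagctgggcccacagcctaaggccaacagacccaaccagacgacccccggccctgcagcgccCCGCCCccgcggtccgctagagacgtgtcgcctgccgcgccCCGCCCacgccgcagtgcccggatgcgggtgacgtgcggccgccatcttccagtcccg
Syn1, chrX:3725545-3725744, + strand: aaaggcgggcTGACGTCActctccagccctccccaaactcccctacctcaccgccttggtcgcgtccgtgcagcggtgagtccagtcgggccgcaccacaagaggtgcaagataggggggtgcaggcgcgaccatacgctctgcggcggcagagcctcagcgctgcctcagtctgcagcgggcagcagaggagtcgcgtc
Stx1a, chr12:27306472-27306671, - strand: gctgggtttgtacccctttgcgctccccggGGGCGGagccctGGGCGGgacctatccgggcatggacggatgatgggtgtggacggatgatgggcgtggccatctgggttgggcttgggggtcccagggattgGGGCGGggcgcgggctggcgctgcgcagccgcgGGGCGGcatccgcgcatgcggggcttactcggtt
The GC box was found in 19 of 26 member promoters (73.1%) and in 8356 of 27457 promoters of all genes with an entry (30.4%). The TGACGTCA element was found in 3 of 26 (11.5%: Syn1, Vamp1 and Napa), against 1.57% of all promoters. TATAAA, searched on both strands, was in none of the 26, against 10.5% of all. The median GC content of the window was 67.0% over the members and 52.5% over all promoters. All promoters here include genes that were not tested for expression. Shares over the tested genes alone were not counted, so these contrasts cannot be called particular to release genes. Among the promoters shown, GC boxes stood in those of Pclo, Vamp2 and Stx1a and not in that of Syn1. A link between such letters and the levels in any rat was not tested. These matches describe letters in a window and are not evidence of a bound factor.

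The levels of the members spanned a wide range. Per length and over the 9 libraries other than LC 2, Snap25 had the highest median level (1990 TPM), followed by Vamp2 (1560 TPM), Syp (1290 TPM), Rab3a (1075 TPM), Syn1 (915 TPM) and Syt1 (791 TPM). Sv2c (4.35 TPM) and Syt2 (5.00 TPM) were the lowest, and no other member was under 47.0 TPM. In some families 1 isoform was far above the others that were measured. Vamp2 stood over Vamp1 (124 TPM), Sv2a (261 TPM) over Sv2c, and Rab3a over Rab3c (112 TPM) and Rab3b (71.6 TPM). The place of Sv2a within its whole family cannot be read, since Sv2b was not analysed here. Among the synaptotagmins the order was Syt1, Syt11 (481 TPM), Syt5 (267 TPM), Syt7 (198 TPM), Syt4 (175 TPM) and Syt2. Of these, Syt7 and Syt4 overlapped in their ranges over the 9 libraries, as did Cplx2 (566 TPM) and Cplx1 (445 TPM), and Napa (267 TPM) and Napb (206 TPM). Among the highest members Snap25 and Vamp2, Vamp2 and Syp, Rab3a and Syn1, and Syn1 and Syt1 overlapped as neighbours, while Syp and Rab3a did not. The spread between rats was small for most members: the coefficient of variation over the 9 libraries was 4.79 to 46.2% with a median of 9.55% in TPM, and the highest were those of Syt2 (46.2%) and Sv2c (43.7%).

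**Figure D1:**
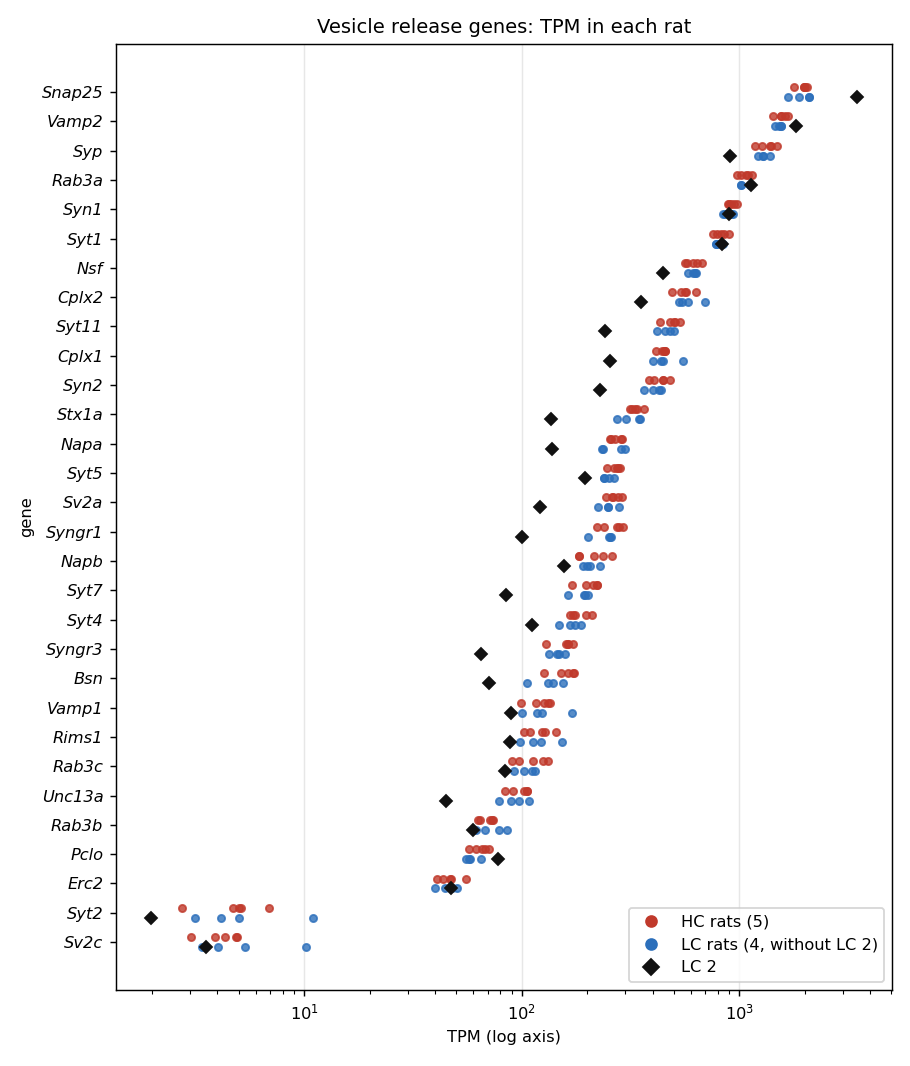
TPM of the 30 measured members in each rat, on a log axis, with genes ordered by their median over the 9 libraries other than LC 2. Red points are HC rats, blue points LC rats and black diamonds LC 2, whose TPM are lowered by its mitochondrial reads: LC 2 was the lowest of 10 rats for 22 members and the highest for 3 (Snap25, Vamp2 and Pclo).

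HC and LC rats were compared to ask whether the release machinery differs between rats that pressed much or little for cocaine cues. No member passed the test. In edgeR's quasi-likelihood test 0 of 14135 genes passed an adjusted p of 0.05 (0%), 0 also by DESeq2 and by limma-voom, and 246 genes (1.74%) had an unadjusted p under 0.05, of which none was a member. The lowest unadjusted p of a member was 0.058 (Rab3b), and the lowest adjusted p 0.89. Without LC 2, 0 of 14312 genes were called (0%) and 298 (2.08%) had an unadjusted p under 0.05, again with no member among them, and DESeq2 and limma-voom also called 0. The median log2 fold change of the 30 members, HC over LC, was -0.09 over all rats against 0.00 over all genes, with 19 members below 0. Without LC 2 it was -0.01, with 17 members below 0. HC and LC rats overlapped in CPM for all 30 members, while 62 of 14135 genes (0.439%) did not overlap. The median standard error of a member's log2 fold change was 0.11 over all rats and 0.08 without LC 2, and this sets the size of difference that these data could show. The exact permutation test on mean log2(TPM + 1), two-sided over 252 regroupings with a smallest possible p of 0.0079, gave 1 of 30 members a p under 0.05. This was Syt5 (269.7 ± 14.3 TPM in HC rats and 239 ± 26.9 TPM in LC rats, SD, n = 5 each; exact p = 0.040, and p = 0.079 over 126 regroupings without LC 2). On log2 CPM no member passed, and the edgeR log2 fold change of Syt5 had the other sign (-0.05).

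**Figure D2:**
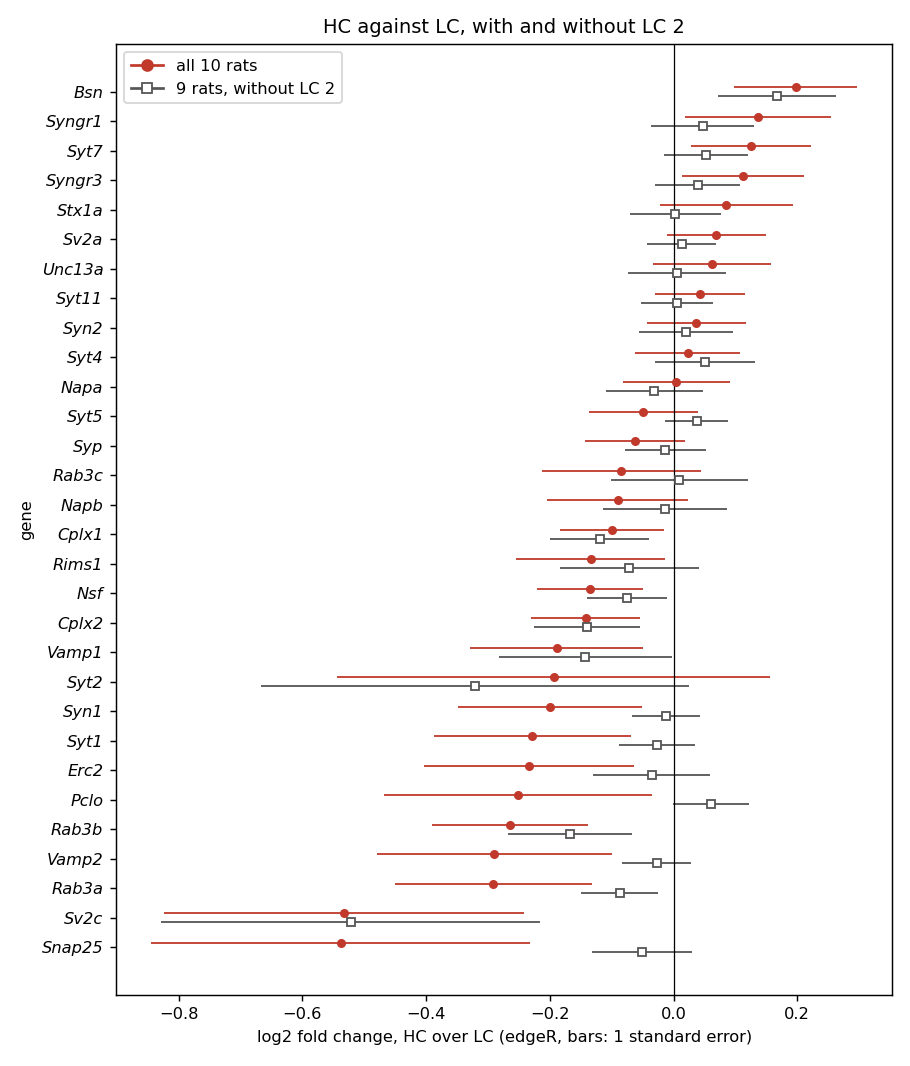
Log2 fold change of HC over LC for the 30 members (edgeR, bars are 1 standard error), over all 10 rats (filled red circles) and over 9 rats without LC 2 (open squares). Snap25 lies at -0.54 with LC 2 and at -0.05 without it, and most members move towards 0 when LC 2 is left out.

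Below, values in every rat are given in the order HC 9, 10, 11, 15 and 16, and LC 2, 4, 12, 13 and 14. In the SNARE core, Snap25, the plasma membrane SNARE that supplies a pair of helices to the fusion complex, had 1795, 1990, 2053, 1980 and 2015 TPM in the HC rats, against 3489, 1890, 2095, 2094 and 1681 TPM in the LC rats. LC 2 was the highest of the 10 rats. LC 12 and LC 13 lay just above the HC rats, LC 14 just below them and LC 4 among them. In edgeR the log2 fold change of HC over LC was -0.54 ± 0.31 (SE) over all rats and -0.05 ± 0.08 without LC 2. Vamp2, the main vesicle SNARE of forebrain neurons, had 1560, 1686, 1630, 1565 and 1436 TPM in the HC rats, against 1822, 1554, 1563, 1463 and 1525 TPM in the LC rats. LC 2 was again the highest rat, and the phenotypes overlapped. HC over LC gave a log2 fold change of -0.29 ± 0.19 (SE, edgeR) with all rats and -0.03 ± 0.06 without LC 2. Vamp1, its paralog, which is prominent in fast-spiking neurons and in hindbrain and spinal cord, had 127, 99.3, 117, 132 and 134 TPM in the HC rats, against 89.4, 118, 123, 171 and 101 TPM in the LC rats. LC 13 was the highest and LC 2 the lowest in TPM, while in CPM after TMM LC 2 (188 CPM) lay within the range of the others (119 to 209 CPM). Between HC and LC rats the log2 fold change was -0.19 ± 0.14 (SE, edgeR), and -0.14 ± 0.14 without LC 2. Stx1a, which encodes the plasma membrane SNARE syntaxin-1A, had 332, 316, 338, 367 and 323 TPM in the HC rats, against 137, 274, 348, 352 and 301 TPM in the LC rats. LC 2 was the lowest rat, and LC 12 and LC 13 lay among the HC rats. Its log2 fold change of HC over LC was 0.09 ± 0.11 (SE, edgeR) over all rats and 0.00 ± 0.07 without LC 2.

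Among the calcium sensors, Syt1, the fast sensor for synchronous release in forebrain neurons, had 756, 856, 903, 826 and 791 TPM in the HC rats, against 837, 788, 844, 785 and 785 TPM in the LC rats. All 10 rats lay close together in TPM and the phenotypes overlapped. In edgeR the log2 fold change of HC over LC was -0.23 ± 0.16 (SE) over all rats and -0.03 ± 0.06 without LC 2. Syt2, the fast sensor of many parvalbumin interneurons and of brainstem synapses, had 5.01, 2.74, 4.69, 5.13 and 6.91 TPM in the HC rats, against 1.99, 4.15, 5.00, 11.0 and 3.14 TPM in the LC rats. These are low levels, from 47 to 376 exon reads per rat, and LC 13 stood above all other rats. HC over LC gave a log2 fold change of -0.19 ± 0.35 (SE, edgeR) with all rats and -0.32 ± 0.35 without LC 2. Syt7, a slow, high-affinity sensor, had 213, 198, 223, 222 and 171 TPM in the HC rats, against 84.6, 163, 193, 202 and 195 TPM in the LC rats. LC 2 was the lowest rat by a wide margin in TPM. It was also the lowest in CPM after TMM, by less (172 CPM, against 205 to 256 CPM in the others). Between HC and LC rats the log2 fold change was 0.12 ± 0.10 (SE, edgeR), and 0.05 ± 0.07 without LC 2. For Syt4, Syt5 and Syt11 the log2 fold changes of HC over LC lay between -0.05 and 0.04 over all rats and between 0.01 and 0.05 without LC 2.

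Of the vesicle membrane and coat proteins, Sv2c, the minor SV2 isoform that is known from basal ganglia neurons, had 3.01, 3.90, 4.35, 4.92 and 4.85 TPM in the HC rats, against 3.54, 10.2, 4.02, 5.38 and 3.4 TPM in the LC rats. LC 4 was the highest, and the other 9 rats lay between 3.01 and 5.38 TPM. Its log2 fold change of HC over LC was -0.53 ± 0.29 (SE, edgeR) over all rats and -0.52 ± 0.31 without LC 2. Syngr1, a tetraspan membrane protein of vesicles, had 240.4, 281, 273, 292 and 222 TPM in the HC rats, against 100, 203, 254, 252 and 257 TPM in the LC rats. LC 2 was the lowest rat and the rest overlapped. In edgeR the log2 fold change of HC over LC was 0.14 ± 0.12 (SE) over all rats and 0.05 ± 0.08 without LC 2. The other members of the class, the synapsins Syn1 and Syn2, Sv2a, synaptophysin (Syp) and Syngr3, had log2 fold changes of HC over LC between -0.20 (Syn1) and 0.11 (Syngr3) over all rats, and between -0.01 (Syp) and 0.04 (Syngr3) without LC 2.

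Rab3 proteins are GTPases on the vesicle that bind RIM at the active zone. Rab3a had 1016, 1075, 1150, 1093 and 981 TPM in the HC rats, against 1129, 1128, 1120, 1021 and 1020 TPM in the LC rats, and the phenotypes overlapped. HC over LC gave a log2 fold change of -0.29 ± 0.16 (SE, edgeR) with all rats and -0.09 ± 0.06 without LC 2. Rab3a is uncertain, since only 36.4 to 39.7% of its exon reads were unique to it, while all other members except Erc2 (80.8 to 87.9%) had at least 97.5% unique reads. Its annotated span also overlaps Mpv17l2. Rab3b had 71.6, 73.8, 73.0, 63.2 and 64.2 TPM in the HC rats, against 59.7, 86.0, 68.1, 61.9 and 79.0 TPM in the LC rats. LC 4 and LC 14 were the highest rats and LC 2 the lowest in TPM, while in CPM after TMM LC 2 was the highest. Between HC and LC rats the log2 fold change was -0.26 ± 0.13 (SE, edgeR), and -0.17 ± 0.10 without LC 2. Rab3c, the third member, had a log2 fold change of -0.08 ± 0.13 over all rats and 0.01 ± 0.11 without LC 2.

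Of the priming, clamping and recycling factors, Cplx2, a complexin that binds the assembled SNARE complex, had 566, 491, 572, 635 and 540.4 TPM in the HC rats, against 353, 547, 584, 696 and 529 TPM in the LC rats. LC 13 was the highest rat and LC 2 the lowest in TPM, while in CPM after TMM LC 2 (699 CPM) lay within the range of the others (554 to 799 CPM). Its log2 fold change of HC over LC was -0.14 ± 0.09 (SE, edgeR) over all rats and -0.14 ± 0.09 without LC 2. Cplx1, the other main complexin of the forebrain, had -0.10 ± 0.08 and -0.12 ± 0.08 without LC 2. For Unc13a, which encodes the priming factor Munc13-1, and for Nsf, Napa and Napb, the disassembly ATPase and its adaptors, the log2 fold changes lay between -0.14 and 0.06 over all rats and between -0.07 and 0.01 without LC 2.

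Among the scaffolds, Bsn, which encodes Bassoon, had 174, 151, 173, 163 and 126 TPM in the HC rats, against 71.2, 106, 140.0, 154 and 133 TPM in the LC rats. The HC rats were on average higher, LC 12, LC 13 and LC 14 lay within their range, and LC 2 was the lowest in TPM, while in CPM after TMM LC 4 (846 CPM) was lower than LC 2 (914 CPM). In edgeR the log2 fold change of HC over LC was 0.20 ± 0.10 (SE) over all rats and 0.17 ± 0.10 without LC 2, with unadjusted p = 0.071 and 0.11. Pclo, which encodes the related giant Piccolo, had 66.1, 67.9, 70.7, 62.0 and 57.4 TPM in the HC rats, against 77.9, 55.6, 65.0, 58.2 and 57.3 TPM in the LC rats. LC 2 was the highest rat and LC 4 the lowest in TPM. HC over LC gave a log2 fold change of -0.25 ± 0.22 (SE, edgeR) with all rats and 0.06 ± 0.06 without LC 2. Erc2, an ELKS protein, had 41.0, 47.2, 55.6, 47.0 and 43.7 TPM in the HC rats, against 47.6, 47.99, 50.4, 40.1 and 44.6 TPM in the LC rats, and the phenotypes overlapped. Between HC and LC rats the log2 fold change was -0.23 ± 0.17 (SE, edgeR), and -0.04 ± 0.09 without LC 2. Rims1, which encodes RIM1, had a log2 fold change of -0.13 ± 0.12 over all rats and -0.07 ± 0.11 without LC 2.

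LC 2 gave the widest spread within the release machinery. In CPM after TMM, LC 2 lay above all of the other 9 libraries for 13 of 30 members and below all of them for 7. This was not particular to these genes: LC 2 lay above the others for 4697 of 14135 tested genes (33.2%) and below them for 5017 (35.5%). Snap25 had 5901 CPM in LC 2 and 1665 to 2140 CPM in the remaining 9, a log2 ratio of 1.62 to their median. Pclo had 1034 CPM in LC 2 and 445 to 521 CPM in the remaining 9 (log2 ratio 1.14), and Vamp2 had 3172 CPM in LC 2 and 1478 to 1678 CPM in the remaining 9 (log2 ratio 1.03). Rab3a (0.88), Erc2 (0.83), Syt1 (0.80), Syn1 (0.78), Rab3b (0.59), Syt5 (0.39), Rab3c (0.38), Napb (0.35), Nsf (0.31) and Syp (0.19) were also above the range on this log2 scale. Syngr1 had 91.5 CPM in LC 2 and 115 to 152 CPM in the remaining 9 (log2 ratio -0.57), and Syt7 (-0.46), Syngr3 (-0.45), Stx1a (-0.43), Unc13a (-0.35), Sv2a (-0.30) and Syt11 (-0.24) were likewise below it.

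The sets cut across the functional classes. All 3 Rab3 genes were above the range, as were Snap25 and Vamp2 of the SNARE core, but their binding partner Stx1a was below it. Pclo and Erc2 were above it, while Bsn and Rims1 were within it. Syt1 was above and Syt7 below, and Syn1 and Syp were above while Sv2a, Syngr1 and Syngr3 were below. These positions depend on the scale, since TPM lower nearly every nuclear gene in LC 2. In TPM only Snap25 (0.81), Pclo (0.33) and Vamp2 (0.22) lay above all other libraries, 22 members were below them, and the median log2 ratio over the members was -0.49 against -0.81 over all genes. With scaling by library size alone, 7 members were above and 15 below. With TPM rescaled after leaving out the mitochondrially encoded genes, 13 members were above and 8 below. The members with a ratio over that of the median gene numbered 18 on the CPM scale and 19 on the TPM scale.

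**Figure D3:**
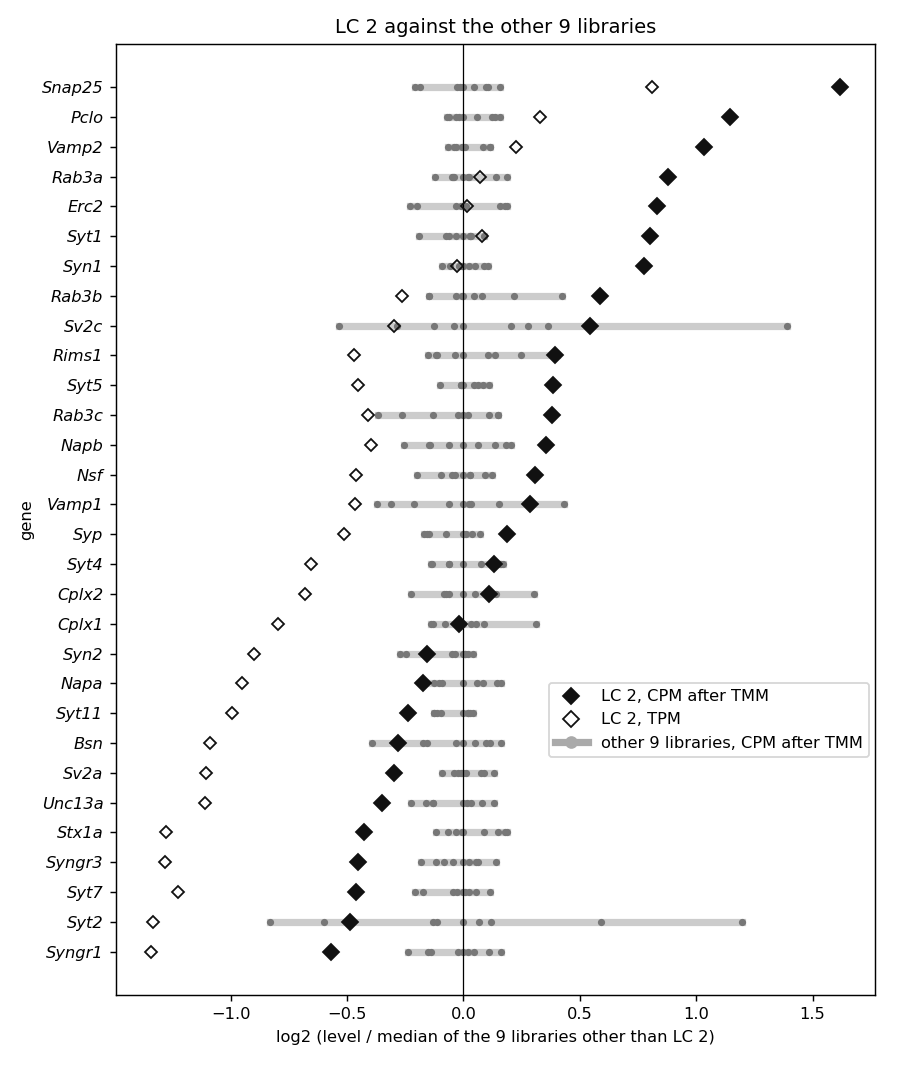
Level of each member in LC 2 relative to the median of the other 9 libraries, on a log2 axis, in CPM after TMM (filled diamonds) and in TPM (open diamonds), with the other 9 libraries in CPM as grey points and bars. In CPM, 13 of 30 members lie above the grey range and 7 below it, while in TPM only Snap25, Pclo and Vamp2 lie above.

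The reads of LC 2 were also placed differently within these genes. The tables give, beside exon reads, the reads that span an exon-exon junction, and their share of a gene's exon reads varied little between the other rats. For Snap25 the junction share was 5.40% (95% Wilson interval 5.22 to 5.58%) in LC 2, with a range of 12.7 to 14.2% over the remaining 9. In counts, LC 2 had 61282 exon reads and 3307 junction reads of Snap25. Its level relative to the median of the other libraries was 3.07-fold in exon reads, 1.31-fold in junction reads and 1.03-fold in intron reads, each in CPM after TMM. For Vamp2 the junction share was 1.50% (95% Wilson interval 1.37 to 1.63%) in LC 2, with a range of 4.57 to 5.17% over the remaining 9. Its level in LC 2 was 2.05-fold in exon reads but 0.66-fold in junction reads, so the direction was opposite. Pclo was 2.21-fold in exon reads and 1.08-fold in junction reads, with a junction share of 2.30% (95% Wilson interval 2.03 to 2.60%) in LC 2, with a range of 4.56 to 5.20% over the remaining 9. For Syn1 the junction share was 4.85% (95% Wilson interval 4.58 to 5.13%) in LC 2, with a range of 8.91 to 10.9% over the remaining 9, with 1.71-fold exon reads and 0.87-fold junction reads.

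Other members had more junction reads per exon read in LC 2. For Cplx2 the junction share was 18.9% (95% Wilson interval 18.1 to 19.9%) in LC 2, with a range of 5.07 to 6.95% over the remaining 9, and its level was 1.08-fold in exon reads and 3.91-fold in junction reads. Cplx1 was alike, with 14.0% (95% Wilson interval 13.1 to 15.1%) in LC 2, with a range of 4.29 to 5.54% over the remaining 9, and a level of 0.99-fold in exon reads and 3.21-fold in junction reads. For Stx1a the share was 21.6% (95% Wilson interval 20.0 to 23.3%) in LC 2, with a range of 12.7 to 15.0% over the remaining 9, and the 0.74-fold level in exon reads stood against 1.17-fold in junction reads. Syt1 was above on both measures, at 1.74-fold in exon reads and 2.84-fold in junction reads, and so was Rab3a (1.84-fold and 2.39-fold). Erc2, with a share inside the range of the other libraries, was 1.78-fold and 1.78-fold. Over the 28 members with at least 200 exon reads in every library, the junction share of LC 2 was below all other libraries for 17, above them for 8 (Stx1a, Syt1, Syt4, Rab3a, Rab3c, Cplx1, Cplx2 and Napb) and within their range for 3. Over 6441 genes that met the same limits, LC 2 was below for 2540 (39.4%) and above for 2014 (31.3%). In each of the other 9 libraries, 3.48 to 9.98% of these genes had the lowest share of the 10 rats and 5.45 to 9.05% the highest. Over all genes without the mitochondrially encoded ones, the junction share of LC 2 was 12.5%, against 12.7 to 13.0% in the other libraries, so the deviations of single genes ran in both directions around a total close to the others. The level of Vamp2, Syn1, Cplx1, Cplx2 or Stx1a in LC 2 thus depends on which reads are counted, and the cause was not tested. Wilson intervals cover counting error only.

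**Figure D4:**
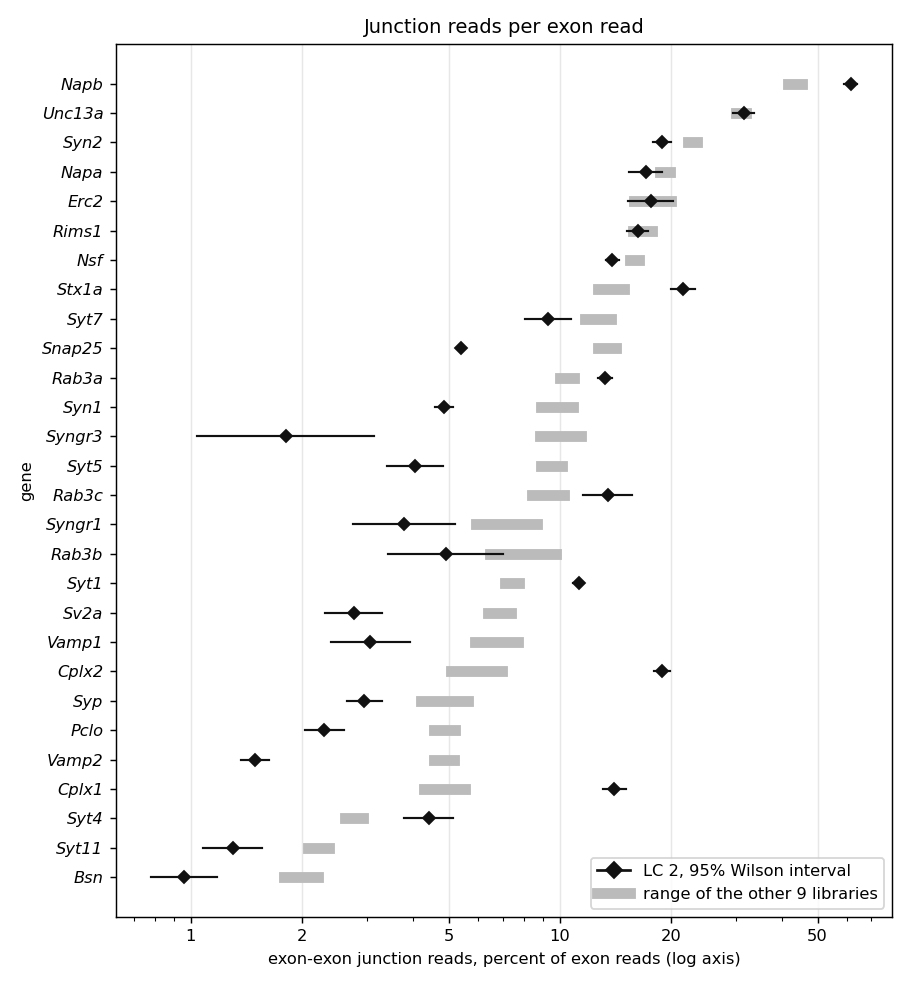
Exon-exon junction reads as a percentage of exon reads (log axis) for 28 members. Diamonds are LC 2 with its 95% Wilson interval and grey bars the range of the other 9 libraries: 17 members lie below the grey range, among them Snap25 (5.40%) and Vamp2 (1.50%), and 8 above it, among them Cplx1 (14.0%) and Cplx2 (18.9%).

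Rats whose tables are named Cue (n = 6) were then compared with those named NoCue (n = 4), with phenotype as an additive term. The edgeR test over all rats called 0 of 14426 genes (0%), limma-voom 0 and DESeq2 41, and 1417 genes (9.82%) had an unadjusted p under 0.05. Without LC 2, 18 of 14705 genes were called (0.122%), no member among them, and 1317 (8.96%) had an unadjusted p under 0.05. Of the 30 members 2 passed the unadjusted threshold in each fit, a share of 6.67% that lies below that of all genes. These were Sv2c and Bsn. Sv2c had a log2 fold change of Cue over NoCue of -0.73 ± 0.21 (SE; unadjusted p = 0.005, adjusted p = 0.50), and -0.83 ± 0.20 (SE; unadjusted p = 0.0022, adjusted p = 0.30) without LC 2. In CPM, Sv2c had 3.97 to 5.59 in HC Cue rats against 6.62 to 6.97 in HC NoCue rats, and 4.72 to 7.39 in LC Cue rats against 8.38 (LC 2) and 15.0 (LC 4) in LC NoCue rats. The Sv2c level rested on few reads, 64 to 222 per rat, and in part on LC 4, without which the log2 fold change was -0.47 ± 0.18 (SE). Without both LC 2 and LC 4 no member had an unadjusted p under 0.05. LC 4 was also the highest rat for all 6 listed markers of striatal projection neurons, with a summed level of 684 CPM against 294 to 389 CPM in the other rats; it was the highest rat for 7.08% of all tested genes. None of these markers was at 0 in any library (Adora2a, 28.9 CPM in LC 4 and 3.23 to 5.49 CPM elsewhere), and their part in the Sv2c difference was not tested. Bsn had a log2 fold change of Cue over NoCue of 0.21 ± 0.08 (SE; unadjusted p = 0.029, adjusted p = 0.50), and 0.21 ± 0.08 (SE; unadjusted p = 0.029, adjusted p = 0.51) without LC 2. It had 1109 to 1242 CPM in HC Cue rats against 984 to 1187 CPM in HC NoCue rats, and 997 to 1150 CPM in LC Cue rats against 846 to 914 CPM in LC NoCue rats. Cue and NoCue rats overlapped in CPM for all 30 members, while 292 of 14135 genes (2.07%) did not overlap. The median log2 fold change of Cue over NoCue was -0.06 over the members and -0.01 over all genes, and without LC 2 it was -0.01 over the members and 0.00 over all genes.

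The difference between Cue and NoCue was also compared between phenotypes by an interaction term, whose positive values mean a higher ratio of Cue over NoCue in HC rats than in LC rats. No gene of 14621 was called by edgeR (0%), 12 were called by DESeq2 and 0 by limma-voom, and 1920 (13.1%) had an unadjusted p under 0.05. Among the members 4 passed the unadjusted threshold, a share of 13.3%. Rab3b had an interaction of 0.57 ± 0.17 (SE; unadjusted p = 0.0071, adjusted p = 0.38) on the log2 scale, and 0.48 ± 0.17 (SE; unadjusted p = 0.017, adjusted p = 0.69) without LC 2. Its level was 36.4 to 38.7 CPM in HC Cue rats against 33.0 to 35.8 CPM in HC NoCue rats, and 33.0 to 42.5 CPM in LC Cue rats against 49.0 to 54.9 CPM in LC NoCue rats. The LC NoCue rats were above all other rats. Stx1a ran the other way, with -0.51 ± 0.16 (SE; unadjusted p = 0.011, adjusted p = 0.38), and -0.37 ± 0.13 (SE; unadjusted p = 0.021, adjusted p = 0.69) without LC 2. Its level was 311 to 318 CPM in HC Cue rats against 338 to 359 CPM in HC NoCue rats, and 304 to 362 CPM in LC Cue rats against 236 to 293 CPM in LC NoCue rats. Here the LC NoCue rats were below all other rats. Such positions were not particular to Rab3b and Stx1a. The LC NoCue rats also lay above all other rats for Sv2c, Nsf, Rab3a and Vamp2. They lay below all other rats for Bsn, Syngr1, Syt7, Syt11, Sv2a and Unc13a. The share of all genes in this position was not counted, so these lists have no background to be read against. LC 2 is among these rats, and it lay above the other 9 libraries for 33.2% of all tested genes and below them for 35.5%. The gap was very small for Vamp2 (LC 4 at 1677.7 CPM, HC 10 at 1675.9 CPM) and for Syt11 (LC 4 at 889.6 CPM, HC 16 at 889.9 CPM). Vamp2 (0.67 ± 0.30 (SE; unadjusted p = 0.048, adjusted p = 0.38)) and Syngr1 (-0.44 ± 0.19 (SE; unadjusted p = 0.039, adjusted p = 0.38)) passed only with LC 2, and without it had 0.14 ± 0.12 (SE; unadjusted p = 0.30, adjusted p = 0.83) and -0.30 ± 0.17 (SE; unadjusted p = 0.12, adjusted p = 0.73). Sv2c passed only without LC 2, at 0.87 ± 0.34 (SE; unadjusted p = 0.031, adjusted p = 0.69). In that fit 3 of 15030 genes (0.02%) were called, no member among them. There 3 of 30 members and 1046 of 15030 genes (6.96%) had an unadjusted p under 0.05, and the LC NoCue group was LC 4 alone, assumed to vary like the other groups.

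**Figure D5:**
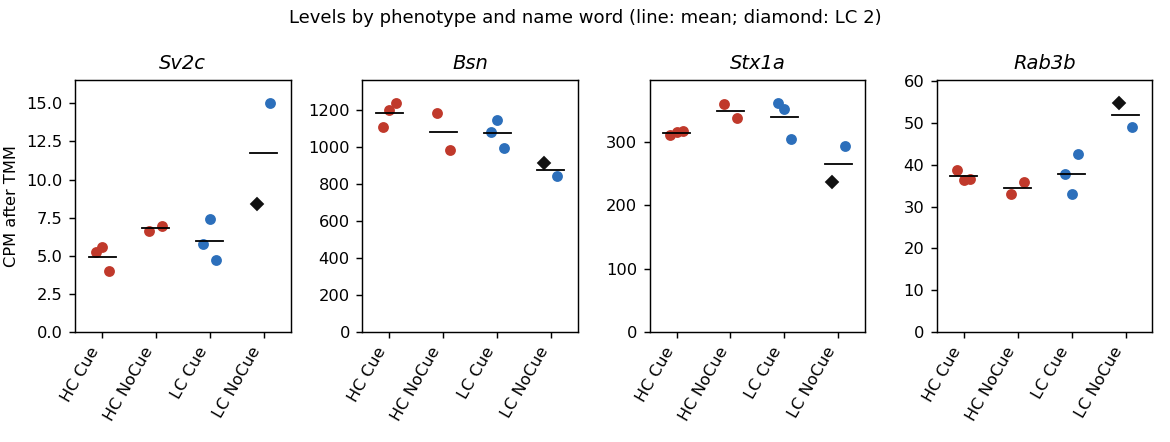
CPM after TMM of Sv2c, Bsn, Stx1a and Rab3b in each rat, by phenotype (HC in red, LC in blue) and by the word in the table's name, with the mean as a line and LC 2 as a black diamond. For Rab3b the LC NoCue rats (49.0 and 54.9 CPM) lie above all other rats, and for Stx1a (236 and 293 CPM) below them. The same rats, LC 2 among them, also lie above all others for Sv2c (8.38 and 15.0 CPM) and below them for Bsn (846 and 914 CPM).

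Other genes of the pathway were read from lists of 41 further release genes, 10 vesicle transporters and proton pump subunits and 16 genes of vesicle endocytosis that passed the filter. For HC against LC, 3 of the 41 release genes had an unadjusted p under 0.05 in edgeR, where the share over all tested genes was 1.74%, and none was called. These were Rimbp2, which encodes a RIM-binding protein (0.28 ± 0.12, unadjusted p = 0.037), the synaptotagmin Syt10 (-0.74 ± 0.32, unadjusted p = 0.039) and Unc13c, a Munc13 isoform (-0.34 ± 0.16, unadjusted p = 0.05). Without LC 2, where the share over all genes was 2.08%, the genes were Rimbp2 (0.19 ± 0.09, unadjusted p = 0.049) and Unc13b (0.17 ± 0.06, unadjusted p = 0.018). No transporter and no endocytosis gene passed in either fit. The list medians of the log2 fold change were 0.02 for release genes, 0.00 for transporters and 0.00 for endocytosis genes. For Cue against NoCue no gene of the lists was called, and 5 had an unadjusted p under 0.05, against 9.82% of all tested genes. Above 0 were Sypl2 (0.61 ± 0.18, unadjusted p = 0.0072), Rims4 (0.62 ± 0.26, unadjusted p = 0.034) and Rimbp2 (0.25 ± 0.10, unadjusted p = 0.031), and below 0 were Slc17a8, a vesicular glutamate transporter (-0.57 ± 0.25, unadjusted p = 0.045) and Amph, the endocytic adaptor amphiphysin (-0.42 ± 0.19, unadjusted p = 0.048). The adjusted p was 0.50 for each of the 5. Without LC 2 the genes at that threshold were Sypl2, Rims4, Cadps2 and Itsn1, all with fold changes above 0 and none called, against 8.96% of all genes. In the interaction 8 release genes (Syt9, Erc1, Rims2, Syt10 and Cplx3 above 0; Syt13, Rims3 and Snap47 below 0), the transporters Slc17a6 and Slc18a2 and the endocytosis gene Dnm3 had an unadjusted p under 0.05, against 13.1% of all tested genes. None was called. Slc17a6, Syt9, Rims3 and Syt10 had such a p also without LC 2, against 6.96% of all genes. In LC 2 the highest ratios in CPM after TMM were those of Syt10 (log2 ratio 1.61), Amph (1.00) and Dnm3 (0.91), and the lowest those of Rims4 (-1.94), Rims3 (-1.16) and Syngr2 (-1.15). LC 2 was above the other libraries for 16 of 41 release genes and below for 11, for 2 and 4 of the 10 transporters and pump subunits, and for 9 and 5 of the 16 endocytosis genes, where the shares over all tested genes were 33.2% above and 35.5% below. The medians were 0.05, 0.00 and 0.19 on the log2 scale, and 0.24 over the members.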

How the data were processed

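Libraries were made from mPFC total RNA with a stranded kit and sequenced as single-end reads, per the labels. The authors trimmed reads and mapped them to Rnor_6.0 in CLC Genomics Workbench 21. For each rat they deposited counts of exon, gene, unique, junction and intron reads and TPM values, which were recomputed here from exon reads and exon lengths without difference. Whether counting used strand is not stated in the sources used here. A table of the authors' own comparison, with fold changes and p-values, was left unused.

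Exon counts were filtered with filterByExpr, scaled by TMM and tested with edgeR 4.0.16 (quasi-likelihood, R 4.3.3), with p-values adjusted by Benjamini-Hochberg over all tested genes. DESeq2 1.42.0, limma 3.58.1 and exact permutation tests served as alternatives, and the closing section gives their effect. The fits were tested on simulated data. LC 2, as 1 library, was compared without a test. Junction shares were compared for genes with at least 200 exon reads in every library and a median share of at least 1%. Depth was 11296517 to 26664008 exon reads, and counting error is smallest for abundant members. Replicates are separate rats, and no library was a copy of another. Fits without LC 2 and by the name word were part of the design; junction and intron fits, and the fit without LC 2 and LC 4, were added after seeing the data. Members and lists were chosen with earlier results of these data known. All members were named. Values in every rat were given for members with an unadjusted p under 0.05 in any of 5 fits, for the 6 largest fold changes between HC and LC with or without LC 2, and for the 6 highest and 3 lowest ratios in LC 2. Pathway genes were named at the same p, or for the 3 highest and 3 lowest ratios. The expression of Sv2b, Snap23, Pecam1 and Foxj1 was not analysed here.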

Additional observations from a re-analysis of the deposited data

Results flagged for a closer look

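A rat that stood far from the other 4 of its phenotype, by Dixon's test at 95%, was found in 8 of 60 sets (30 members in HC and in LC rats, CPM after TMM). The nominal rate of the test is about 5%, but the sets share the same rats and are not independent. In 6 of the 8 the rat was LC 2. LC 2 lay above the other 9 libraries for 33.2% of all tested genes and below them for 35.5%. The share of all genes with such a flag was not counted. Among the LC rats, LC 2 had 5901 CPM of Snap25 (other LC rats 1665 to 2140 CPM), 3172 CPM of Vamp2 (1478 to 1678 CPM) and 2998 CPM of Syt1 (1632 to 1827 CPM). It also had 2274 CPM of Syn1 (1274 to 1428 CPM), 1242 CPM of Rab3a (652 to 770.1 CPM) and 1034 CPM of Pclo (445 to 521 CPM). LC 2 also has the mitochondrial share and the junction shares given above, and their part in these values was not tested. LC 13 had 15.8 CPM of Syt2 (other LC rats 4.55 to 7.47 CPM). HC 10 had 1676 CPM of Vamp2, against 1509 to 1549 CPM in the other HC rats, a gap that is small beside the level.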

How the results depend on the processing

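No paired analysis was possible because no rat number occurs in both phenotypes. For HC against LC no alternative called a gene. The number of members with an unadjusted p under 0.05, which was 0, became 1 with gene reads (Rab3b), 2 with the name word as an additive term (Sv2c and Bsn), 1 in Cue rats alone (Cplx2), 1 in NoCue rats alone (Rab3b), 1 with junction reads (Cplx2) and 2 with intron reads (Cplx2 and Syn1), and 0 to 3 with each rat left out (3 without LC 13, 2 without LC 14). Over all genes, the number under that p was 246 of 14135 in the main fit and 308 of 14945 with gene reads. It was 420 of 14426 with the name word, 423 of 14340 in Cue rats and 591 of 14097 in NoCue rats. With junction reads it was 272 of 10017, and with intron reads 377 of 12293. Without LC 13 it was 634 of 14113, and without LC 14 it was 468 of 14111. The median log2 fold change of the members, -0.09, became 0.13 with limma on log2(TPM + 1), a scale on which the median of all genes was 0.21. Scaling by library size alone moved the median of all genes by 0.10. Of 779 fold changes of single members under alternatives, 723 moved by less than 1 SD of the rats and 68 had another sign than in edgeR over all rats. Without LC 2 the count of members ranged from 0 to 3 with a further rat left out and was 2 with the name word as a term. The number over all genes there was 215 of 14174 (without HC 11) to 539 of 14331 (without LC 13). With the name word it was 548 of 14705.

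For Cue against NoCue, DESeq2 called 41 genes and limma on TPM called 6; leaving out each rat gave 0 to 18, the highest without LC 2, and leaving out LC 2 and LC 4 gave 2. Members with an unadjusted p under 0.05 numbered 4 with limma on TPM, 1 to 7 with each rat left out (1 without HC 9 or LC 12, 5 without LC 4, 7 without HC 15) and 0 without LC 2 and LC 4. Over all genes, the number under that p also moved, from 1417 of 14426 to 1847 of 13769 with limma on TPM. It was 2373 of 14520 without HC 15, 1861 of 14669 without LC 4, 1385 of 14259 without HC 9 and 898 of 14493 without LC 12. Without LC 2 and LC 4 it was 956 of 14668. The median log2 fold change of the members was -0.06, and became 0.060 by library size alone and 0.18 by limma on TPM. Without LC 2, the 18 calls became 93 with DESeq2 and 0 to 11 with a further rat left out, and the 2 members became 0 to 6. With a further rat left out, 688 of 14704 (without HC 16) to 2051 of 14562 genes (without HC 15) had an unadjusted p under 0.05. In the interaction DESeq2 called 12 genes and gave 8 members an unadjusted p under 0.05, against 2037 of 14621 genes.

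The median log2 ratio of the members in LC 2, 0.24, became -0.49 in TPM, 0.18 in TPM without mitochondrial genes, -0.17 by library size alone, 0.17 with gene reads, -0.12 with junction reads and 0.10 with intron reads. The exact test gave 1 member a p under 0.05 on TPM and 0 on log2 CPM. The median SE of 0.11 over the members limits the differences that 5 rats per phenotype can show. The cause was not tested in any of these cases.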
